A study of Mus musculus with 2 samples.

Results

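The cells described here were retinal cell barcodes with bipolar transcripts in which Cpne9 and Tshz2, the genes used to pick them out, together reached at least 3 unique molecular identifiers (UMIs, each standing for 1 captured transcript). A barcode was taken when it had at least 300 genes, at least 1000 UMIs and at most 20% mitochondrial UMIs, carried under 0.5% of its UMIs in the Müller glia genes Glul, Rlbp1, Apoe and Slc1a3, and held at least 2 UMIs of the bipolar genes Trpm1, Isl1, Grm6, Pcp2 and Gng13. It also had to hold under 3 UMIs of the type 5 bipolar genes Htr3a, Kcng4 and Sox6 and under 2 of the amacrine genes Gad1, Gad2 and Slc6a9. The rule found 91 members, 39 among the 12316 barcodes of the library labelled Muller and 52 among the 11309 of the library labelled MullerControl. Of all barcodes, 8068 and 7769 passed the clauses on genes, UMIs and mitochondrial share and are called quality barcodes below, and 3884 and 1182 also passed the glial, bipolar and amacrine clauses and are called bipolar-gated.

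Both libraries came from retinas of B6.Cg mice that carry the allele Gt(ROSA)26Sortm9(CAG-tdTomato)Hze, aged 14 weeks, taken 8 weeks after AAV (adeno-associated virus) injection, and both were made from cells sorted for tdTomato fluorescence. In this line a ubiquitous promoter drives the red reporter tdTomato from the Rosa26 locus once Cre recombinase has removed a stop cassette. The protocol names a control and a test sort, and MullerControl was taken as the control and Muller as the test. The reporter-positive rate was about 10% and 4.9%, about 120000 and 60000 positive cells were collected, and 27000 cells were used for each library. What each virus carried, which promoter drove it and how many mice were pooled are not given in the sources used here. Each group had 1 library, so no test between groups was possible, and every interval below is a 95% interval for counting error alone, which leaves out the variation between mice, sorts and cells. Members of the Muller library had a median of 3910 UMIs (1067 to 7674) and those of MullerControl 3690 (1489 to 14214), with 158343 and 215361 UMIs in all. The libraries shared 40 barcode sequences, and no member was among them.

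Bipolar cells are the interneurons that carry the signals of rods and cones from the outer to the inner retina. ON types respond to light through the glutamate receptor mGluR6, encoded by Grm6, whose cascade ends at the cation channel TRPM1, and OFF types use ionotropic glutamate receptors such as the one encoded by Grik1. The many cone bipolar types differ in where their axons stratify and in the adhesion, channel and receptor genes they express. Cpne9 encodes a copine, a calcium-dependent phospholipid-binding protein, and Tshz2 a teashirt zinc-finger transcription factor, and the rarer ON cone bipolar types 8 and 9 were the candidates behind the rule.

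Markers of these cells beyond the rule genes varied among the members. They were chosen with earlier results of these data known, so they give the label no separate support. Of the markers of these cells that the rule did not use, Lrp1b, which encodes a very large receptor of the LDL receptor family, had at least 1 UMI in 29 of the 39 Muller members and 42 of the 52 MullerControl members, and Csmd3, which encodes a large transmembrane protein with CUB and sushi domains, in 11 and 25, with a median of 0 UMIs in both libraries. However, 9 and 7 members held at least 50 UMIs of the 7 cone genes Arr3, Opn1sw, Opn1mw, Gnat2, Pde6h, Pde6c and Gngt2, with 62 to 430 UMIs each, while no other member had more than 12. Of these 16 cone-rich members, 2 had an Lrp1b UMI and 5 a Cpne9 UMI, while all 16 had Tshz2. Tshz2 was the more abundant of the pair in 8 of the 9 in Muller and in all 7 in MullerControl. A further 3 and 4 members held at least 6 UMIs of the OFF bipolar genes Grik1, Tacr3, Fezf2, Vsx1, Irx6 and Slitrk6, where no remaining member had more than 3. Of these 7 OFF-rich members, 5 had an Lrp1b UMI, 4 a Cpne9 UMI and all 7 Tshz2, so their label is not settled by this limit. The limit takes no account of depth, and their median was 5138 UMIs against 3348 in the members left. The other 68 members, 27 of Muller and 41 of MullerControl, are called the core members, and Lrp1b was seen in 64 of them, Cpne9 in 60, Tshz2 in 64 and Csmd3 in 31. Both limits were set after these values had been seen, and each lies in a gap of the distribution. Values below are for the core members unless all members are named.

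Barcodes rich in cone genes outside the rule carried Tshz2 too. Of the quality barcodes with at least 50 cone UMIs that were no members, 41.1% of 292 in Muller and 51.9% of 750 in MullerControl had a Tshz2 UMI, against 1.98% and 0.914% of barcodes rich in rod transcripts and poor in cone and bipolar ones. Their median depths were 3201 and 4211 UMIs for the cone-rich barcodes and 1608 and 1725 for the rod barcodes, and after thinning each barcode to 1000 UMIs the Tshz2 shares were 22.6% and 19.1% against 1.13% and 0.340%. Cpne9 was seen in 6.51% and 10.9% of the cone-rich barcodes, and Lrp1b in 1.37% and 0.933%. Among barcodes with 3 or more UMIs of Cpne9 and Tshz2, the bipolar clause of the rule removed 32 in Muller and 101 in MullerControl. Of these, 24 and 94 were cone-rich. Cone-rich members passed that clause with few bipolar UMIs, a median of 2 in Muller and 8 in MullerControl, against 15 and 14 in the core members.

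Within the members, both rule genes were seen in most core cells, in unequal amounts. Core members of Muller held 0 to 13 Cpne9 UMIs (median 3) and 0 to 8 Tshz2 UMIs (median 2), and those of MullerControl held 0 to 14 (median 4) and 0 to 8 (median 3). Of the 27 Muller core members, 21 had both genes, 3 only Cpne9 and 3 only Tshz2, and of the 41 MullerControl core members, 35 had both, 1 only Cpne9 and 5 only Tshz2. Lrp1b had a median of 2 UMIs (0 to 12) and 4 (0 to 10), and Pcdh11x, which encodes an X-linked protocadherin, a median of 2 (0 to 6) and 1 (0 to 19). The threshold lay in a range where marker content changed. The counts here are of bipolar-gated barcodes that also passed the type 5 clause. Among those with exactly 2 UMIs of Cpne9 and Tshz2, just outside the rule, Lrp1b was seen in 5 of 22 (Muller) and 11 of 24 (MullerControl). Of those barcodes, 7 and 8 were cone-rich. With exactly 3, just inside the rule, Lrp1b was seen in 7 of 13 and 2 of 7, and 5 and 3 of those barcodes were cone-rich. With 8 or more UMIs, all 10 Muller and all 18 MullerControl members had Lrp1b.

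**Figure D1:**
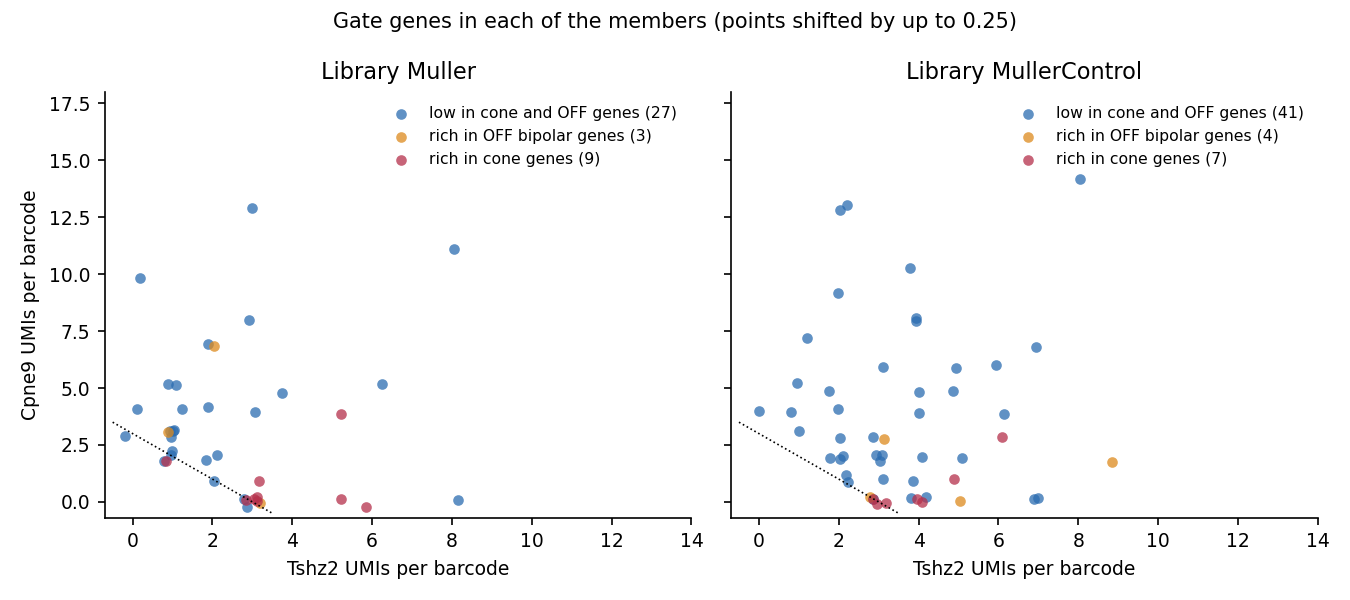
UMIs of Tshz2 (horizontal axis) and Cpne9 (vertical axis) in each member of the Muller and MullerControl libraries, 1 point per barcode (shifted slightly at random), coloured by whether the member was core, rich in OFF bipolar genes or rich in cone genes; the dotted line marks the threshold of 3 UMIs. Core members spread from 0 to 14 Cpne9 UMIs, whereas the 16 cone-rich members held at most 4 and lie mostly along the Tshz2 axis.

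Both rule genes and the genes described next lie far apart in the genome. In the mouse build GRCm38, Cpne9 spans chr6:113282307-113305627 on the plus strand, and Tshz2 spans chr2:169633013-170071816 on the plus strand. Lrp1b lies at chr2:40595246-42653624, Csmd3 at chr15:47580637-48792063, Pcdh11x at chrX:120290259-120910619 and Tenm1 at chrX:42527866-43429126. The 250 bases before the RefSeq start are shown for 3 genes, the pair that defined the cells and Tenm1, a leading gene that the rule did not use, so that the sequence beside their shared expression can be read (RefSeq, GRCm38.p6, 5′ to 3′ on the gene's strand; capitals mark a CAGCTG motif). RefSeq starts can differ from those of the gene spans above, and the Tenm1 start lies inside its span. The Cpne9 window is chr6:113282057-113282306 on the plus strand, the Tshz2 window chr2:169632259-169632508 on the plus strand and the Tenm1 window chrX:43274785-43275034 on the minus strand.
Cpne9: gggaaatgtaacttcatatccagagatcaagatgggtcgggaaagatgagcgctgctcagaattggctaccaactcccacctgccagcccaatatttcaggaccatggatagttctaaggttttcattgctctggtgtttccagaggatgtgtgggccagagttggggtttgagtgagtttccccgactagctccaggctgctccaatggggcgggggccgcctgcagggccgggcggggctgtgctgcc
Tshz2: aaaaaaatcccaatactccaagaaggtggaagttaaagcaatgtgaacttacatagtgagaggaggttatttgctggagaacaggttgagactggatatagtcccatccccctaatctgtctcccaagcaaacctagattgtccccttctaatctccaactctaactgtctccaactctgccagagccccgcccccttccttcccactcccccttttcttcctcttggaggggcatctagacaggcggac
Tenm1: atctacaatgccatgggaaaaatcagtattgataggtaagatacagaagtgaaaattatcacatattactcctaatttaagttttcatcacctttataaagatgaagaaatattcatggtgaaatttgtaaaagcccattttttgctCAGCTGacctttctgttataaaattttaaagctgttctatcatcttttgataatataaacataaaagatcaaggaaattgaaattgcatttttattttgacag
Each window was searched on both strands for 3 motifs, of which TAATCC and TAATTA begin alike and none contains another. They were TAATCC, bound by OTX-class homeodomain factors, TAATTA, bound by many other homeodomain factors, and CAGCTG, an E-box bound by basic helix-loop-helix factors. The Cpne9 and Tshz2 windows held none of them, and the Tenm1 window held CAGCTG. Of all 32851 windows of this length, 6.25% held TAATCC, 4.84% TAATTA and 13.0% CAGCTG. Among the 16 genes with the highest ratios in the core members, 11 had a RefSeq window, of which 0 held TAATCC, 0 held TAATTA and 3 held CAGCTG (Tenm1, Iqgap2 and Mir100hg). These are letters in a window and say nothing about binding.

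The members were then compared with bipolar cells of other types from the same libraries. The type 5 gate held 347 Muller and 119 MullerControl barcodes with at least 3 UMIs of Htr3a, Kcng4 and Sox6, and the rod bipolar gate held 800 and 249 with at least 3 UMIs of Prkca, Sebox and Car8. Both passed the quality, glial, bipolar and amacrine clauses and had under 3 UMIs of Cpne9 and Tshz2. UMIs were summed over the barcodes of a group and expressed as counts per 1000000 UMIs of that sum (CPM), and ratios had 1 count added to each sum. Of 5517 genes measured, 201 (3.64%) were at least 2-fold higher in the members than in both gates in both libraries, and 59 (1.07%) were at least 2-fold lower. For the core members the counts were 289 of 5782 (5.00%) higher and 69 (1.19%) lower, and 135 of the higher and 44 of the lower genes were common to both. The count added weighs more in the small sums of the members than in the large sums of the gates. With 10 CPM added to both sides in its place, 139 genes were higher in the members and 141 in the core members. The lower genes were then 59 in the members and 89 in the core members. Of the higher genes, 18 of 201 in the members and 86 of 289 in the core members had under 5 UMIs there in a library. A gene was measured when any 1 group reached 50 CPM. Genes below that in every gate were measured through the members, which favours a higher ratio.

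Pcdh11x, Lrp1b and Tenm1 had the highest ratios over the type 5 and rod bipolar gates among the genes that the rule did not use. The marker Csmd3 and the guidance gene Unc5d are described with them. Levels of these genes in other ON cone bipolar cells are not given here. Lrp1b stood at 820 CPM (651 to 1019) in Muller and 1159 CPM (984 to 1356) in MullerControl, against 1.65 to 8.86 CPM in the 4 comparison groups, and it was seen in 96.3% and 92.7% of core members against 0.402% to 2.52% of the barcodes in these groups. Other bipolar-gated barcodes that passed the type 5 clause carried Lrp1b too. It was seen in 3.57% of the 3361 Muller and 5.94% of the 926 MullerControl barcodes with 0 UMIs of the rule genes. With 1 such UMI it was seen in 23.1% of 104 and 33.3% of 57. Pcdh11x stood at 486 CPM (358 to 644) and 661 CPM (531 to 814), with 0 UMIs in the type 5 gate of both libraries, where 3 UMIs would have been 2.10 and 5.32 CPM, and 4 and 0 UMIs in the rod bipolar gate. Both genes, and Csmd3, Tenm1 and Unc5d below, were under 50 CPM in every gate. They were thus measured through the core members, which favours a higher ratio, so their standing apart from the gates is no separate result. Csmd3 was at 121 CPM (62.8 to 212) and 342 CPM (250 to 456), against 4.20 and 5.32 CPM in the type 5 gate and 9.43 and 17.3 CPM in the rod bipolar gate. Tenm1, a teneurin that bridges synaptic partners, stood at 213 CPM (132 to 325) and 342 CPM (250 to 456), with 3 and 0 UMIs in the type 5 and 5 and 0 in the rod bipolar gate. Unc5d, a netrin receptor of axon guidance, was at 192 and 379 CPM, against at most 18.1 CPM in the gates. The core members were the shallower barcodes, with medians of 3702 and 2985 UMIs, below the 4036 and 4893 of the type 5 gate and the 4176 and 5421 of the rod bipolar gate.

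Iqgap2, Fam181b, Dmbx1, Ntrk3, Skor2, Plcb1 and Spry1 came next in the order of ratios. Ntrk3, the receptor of neurotrophin-3, stood at 213 and 394 CPM against 1.65 to 5.32 CPM in the gates. Plcb1, a phospholipase C, was at 182 and 193 CPM against at most 5.59 CPM, and Spry1, an inhibitor of receptor tyrosine kinase signalling, at 70.9 and 126 CPM against at most 2.10 CPM. Dmbx1, a homeobox factor, had 11 and 13 UMIs (111 and 96.6 CPM) in the core members and 0 UMIs in both gates of both libraries. The same held for Iqgap2, a scaffold protein of the cytoskeleton, with 12 and 16 UMIs. Both genes were thus measured through the core members alone, and their ratios could only be high. Ntrk3, Plcb1, Spry1, Skor2, Fam181b and Nsg2 were also under 50 CPM in every gate and were measured through the core members. Skor2, a transcriptional corepressor, had 17 and 9 UMIs and 3 UMIs in all comparison groups together, all of them in the Muller rod bipolar gate. Nsg2, a neuronal endosomal protein, was at 233 and 364 CPM against 9.09 to 21.3 CPM. The 16 genes with the highest ratios in the core members also took in Fam181b, Mir100hg, Prob1, Pcdh19 and Fam102b, with 4 to 18 UMIs in a library. Cpne9 (1124 and 1308 CPM) and Tshz2 (617 and 1033 CPM) are in this order because the rule selected on them. Among all 91 members the leading genes also included Tacr3, an OFF bipolar marker, and further down the order Agr2 and Opn1mw, the opsin gene of M cones. Opn1mw had 259 and 303 UMIs in all members but 1 and 4 in the core, and Agr2 10 and 18 against 0 and 1.

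**Figure D2:**
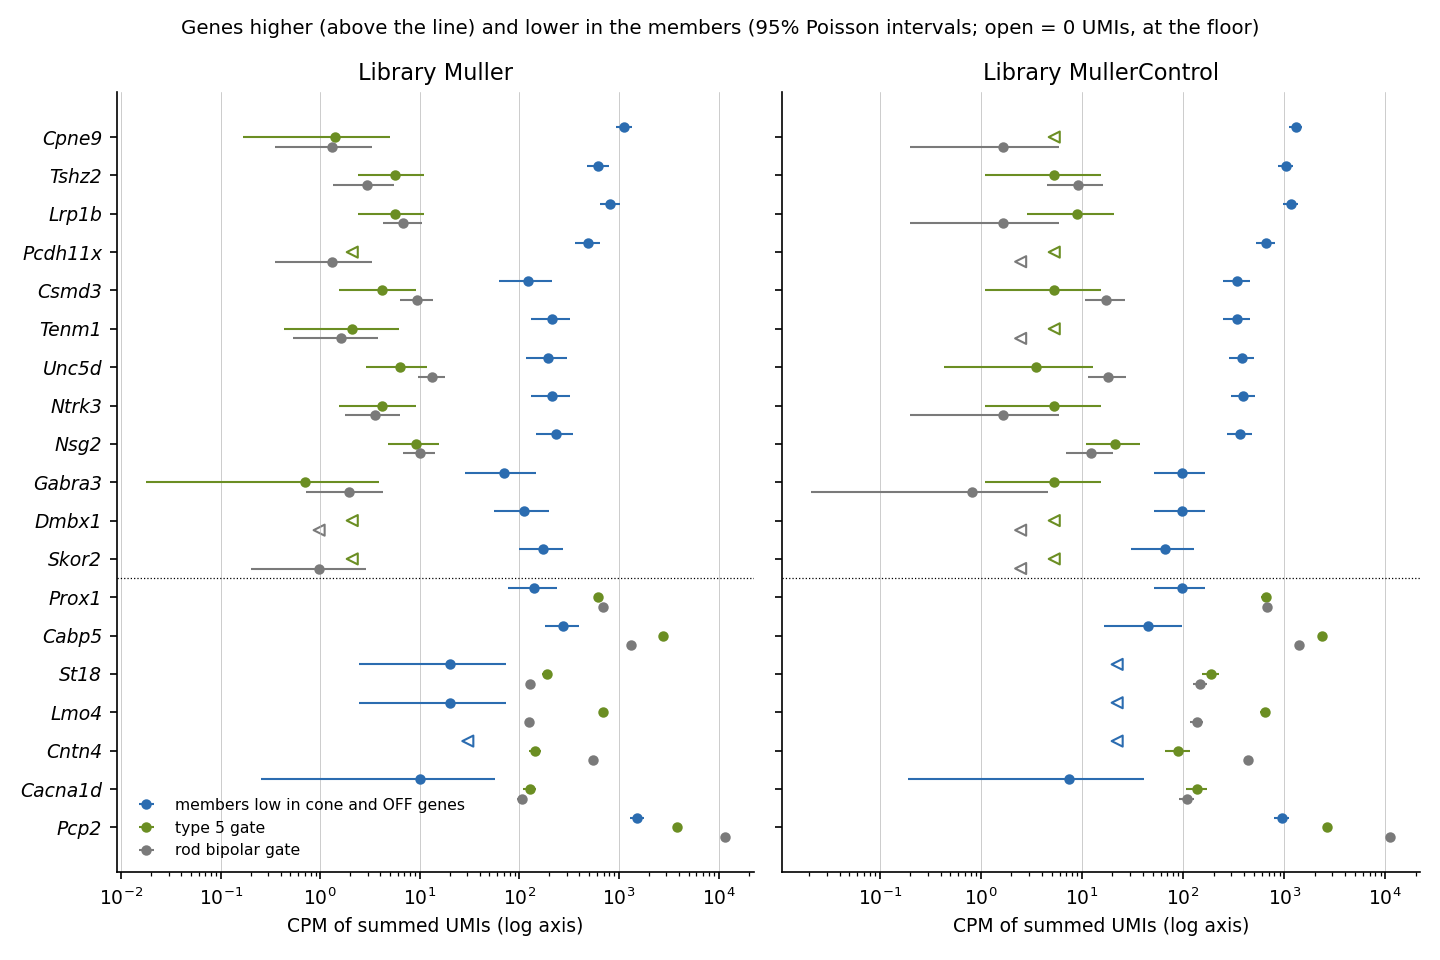
CPM of summed UMIs (log axis, 95% Poisson intervals) for 12 genes higher and 7 genes lower in the core members than in the type 5 and rod bipolar gates, by library; open triangles mark 0 UMIs and are drawn at the level of 3 UMIs. The core members stand apart from both gates for Lrp1b, Pcdh11x, Tenm1 and Ntrk3 in both libraries, and Prox1, Cabp5 and Cntn4 lie on the other side. Lrp1b, Pcdh11x, Tenm1 and Ntrk3 were under 50 CPM in every gate and were measured through the core members, which favours a higher ratio.

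The genes lower than in the type 5 and rod bipolar gates included Prox1, St18, Nfib, Cacna1d and metallothioneins. The small Igfn1 gate as a further comparison was an alternative added after seeing the data. With it, 33 of 6020 measured genes were lower in the members in place of 59 of 5517, and 111 higher in place of 201. Prox1, a homeobox factor of bipolar, amacrine and horizontal cells, stood at 142 and 96.6 CPM in the core members against 612 to 697 CPM in the gates, and was seen in 25.9% and 22.0% of core members against 80.3% to 91.6%. St18, a zinc-finger factor, had 2 and 0 UMIs in the core members but 129 to 191 CPM in the gates. Nfib, of the nuclear factor I family, and Tmem132d had 0 UMIs in the core members of both libraries, where 3 UMIs would have been 30.4 and 22.3 CPM, against 41.2 to 81.8 CPM and 38.7 to 135 CPM in the gates. Cacna1d, a subunit of L-type calcium channels, had 1 UMI in the core of each library against 106 to 136 CPM. Drd2, a dopamine receptor, also had 1 UMI in each against 70.9 to 104 CPM. Metallothioneins were lower as well, Mt1 at 223 and 66.9 CPM against 503 to 1046 CPM, and Mt2 with 2 and 1 UMIs against 84.1 to 163 CPM.

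The ON cascade was present in the core members, at levels near those of the type 5 gate for some genes and lower for others. Grm6 stood at 466 CPM (341 to 621) and 684 CPM (551 to 838), against 459 and 424 CPM in the type 5 gate and 412 and 495 CPM in the rod bipolar gate, so that the groups overlapped in Muller. Trpm1 was at 1377 and 1478 CPM, above the 1081 and 1048 CPM of the type 5 gate and below the 2754 and 2552 CPM of the rod bipolar gate. Pcp2, which encodes a regulator of G protein signalling in ON bipolar cells, was at 1528 and 944 CPM, against 3793 and 2645 CPM and 11629 and 11146 CPM. Gng13, the gamma subunit of the cascade's G protein, was at 1265 and 1204 CPM against 2391 to 4189 CPM. Grm6, Trpm1, Isl1, Pcp2 and Gng13 entered the rule for all of these groups alike, which sets a floor of 2 UMIs in sum. Of the 13 listed cascade genes measured in the core, 0 were 2-fold higher and 1, Pcp2, was 2-fold lower than both gates in both libraries, with a median log2 ratio of -0.48 (-0.61 with sums of 0 set to 3 UMIs) against 0.30 (0.17) over all genes measured. In all members, Lrit3 was the exception on the higher side, and its 11 and 9 UMIs lay entirely outside the core. Grik1 and Tacr3, which helped to set the core apart, had 0 UMIs and 3 and 1 UMIs there as a result of that limit, and 2 and 6 and 5 and 12 UMIs in all members.

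Among 24 listed transcription factors measured in the core, 2 were higher and 5 lower, and the list's median log2 ratio was -0.60, beside 5.00% higher, 1.19% lower and a median of 0.30 over all genes measured. In all members the counts were 4 and 4 of 25, with a median of -0.09 beside 0.21 over all genes. Zfhx4, a large zinc-finger homeobox factor, stood at 142 and 312 CPM against 12.4 to 74.2 CPM, and Tshz2 is the rule gene. Lhx4, a LIM homeobox factor of cone bipolar cells, had 3 and 1 UMIs against 107 to 631 CPM. Lmo4, a LIM-only protein, had 2 and 0 UMIs against 125 to 693 CPM. Neurod4, a basic helix-loop-helix factor, stood at 223 and 253 CPM against 699 to 1325 CPM, and the others were St18 and Nfib. Of 18 listed markers of bipolar types, Spon1 (70.9 and 134 CPM against at most 6.99 CPM) and Serpini1, a neuronal serpin (364 and 617 CPM against 25.2 to 61.0 CPM), were higher. Spon1 was under 50 CPM in every gate and was measured through the core members. Cnmd, Cabp5 and Scgn were lower, as was Grik1, whose level the limit on OFF genes had set. The median log2 ratio of this list was -0.76. In all members 5 of 21 were higher (Tacr3, Slitrk6, Pcdh17, Spon1 and Serpini1) and 2 lower (Cnmd and Cabp5), with a median of 0.36.

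Adhesion and guidance genes formed the longest list. Of 47 measured in the core, 10 were higher (Pcdh7, Pcdh11x, Pcdh19, Cntnap5a, Nrxn2, Tenm1, Unc5d, Slit2, Fat3 and Lsamp) and 3 lower (Cdh11, Cntn4 and Cntn5), with a median log2 ratio of 0.45 (0.44 with sums of 0 set to 3 UMIs), beside 5.00% higher, 1.19% lower and a median of 0.30 (0.17) over all genes measured. In all members 10 of 49 were higher and 2 lower, with a median of 0.36. The same 10 of the core were higher with 10 CPM added, beside 141 of 5782 over all genes measured. Of these, Pcdh11x, Pcdh19, Cntnap5a, Tenm1, Unc5d and Slit2 were under 50 CPM in every gate. They were measured through the core members, which favours a higher ratio, so the count of 10 is no separate result. Lsamp, a cell adhesion protein of the IgLON family, stood at 263 and 275 CPM against 14.0 to 101 CPM, and Cntnap5a, a contactin-associated protein, at 60.7 and 119 CPM against 2.28 to 7.09 CPM. Slit2, a guidance ligand, stood at 81.0 and 104 CPM against 19.6 to 31.2 CPM, but its UMIs came from 14.8% and 4.88% of core members. On the lower side the contactin Cntn4 had 0 UMIs in the core of both libraries, against 545 and 440 CPM in the rod bipolar gate and 145 and 88.6 CPM in the type 5 gate. The contactin Cntn5 had 1 and 0 UMIs against 44.9 to 363 CPM, and the cadherin Cdh11 1 and 1 UMIs against 72.5 to 241 CPM. Of 2 copine genes measured, only the rule gene Cpne9 was higher. Of 6 LRP and CSMD genes, Lrp1b, Csmd3 and Lrp1 were higher, the last of these at 30.4 and 89.2 CPM against 1.77 to 21.4 CPM, and it was not higher with 10 CPM added. Lrp1b, Csmd3 and Lrp1 were under 50 CPM in every gate and were measured through the core members as well.

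Synaptic and excitability genes differed in a few members of each list, which is to be read beside the 5.00% higher and 1.19% lower over all 5782 genes. With 10 CPM added, 141 of the 5782 were higher and 89 lower. Grin3a, Gabra3, Gabrb2, Kcnd3, Cacna1g, Rbfox3 and Nsg2 were under 50 CPM in every gate. They were measured through the core members, which favours a higher ratio. Of 25 ribbon and release genes, 0 were higher and 1, Cacna1d, was lower, and the median log2 ratio was -0.04. Of 20 transmitter receptor genes, 4 were higher (Gria4, Grin3a, Gabra3 and Gabrb2; not Gria4 with 10 CPM added) and 2 lower, Gabrr1 and Grik1, the latter set by the limit on OFF genes. The list's median log2 ratio was 0.76, and in all members 3 of 19 were higher and 1 lower. Grin3a, an NMDA receptor subunit, stood at 50.6 and 134 CPM against 1.77 to 5.85 CPM. Gabra3 and Gabrb2, subunits of ionotropic GABA receptors, stood at 70.9 and 96.6 CPM against at most 5.32 CPM and at 60.7 and 111 CPM against at most 10.5 CPM, while Gabrr1, a subunit of the GABA receptor typical of bipolar terminals, was lower at 81.0 and 104 CPM against 252 to 407 CPM. Of 24 channel genes, 5 were higher (Kcnab1, Kcnd3, Cacna1g, Ano2 and Itpr1; not Itpr1 with 10 CPM added) and 2 lower, Cacna1a among them. The median was 0.57, and in all members 4 of 23 were higher and 1 lower. Kcnd3, a subunit of A-type potassium channels, was at 121 and 171 CPM against 6.60 to 35.5 CPM, and Cacna1g, a T-type calcium channel, at 70.9 and 171 CPM against 4.88 to 21.3 CPM. Of 14 genes of calcium-binding proteins, Cabp2 was higher at 617 and 342 CPM against 3.54 to 102 CPM, and Cabp5 was lower at 273 and 44.6 CPM against 1318 to 2742 CPM. Cabp1 was also higher, though not with 10 CPM added, and Scgn was lower. The median of this list was 0.10, and in all members 3 of 14 were higher and 1 lower. Of 15 general neuronal genes, Map1b, Rbfox3 and Nsg2 were higher and 0 lower; Map1b, a microtubule-associated protein, stood at 1316 and 1649 CPM against 228 to 484 CPM.

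**Figure D3:**
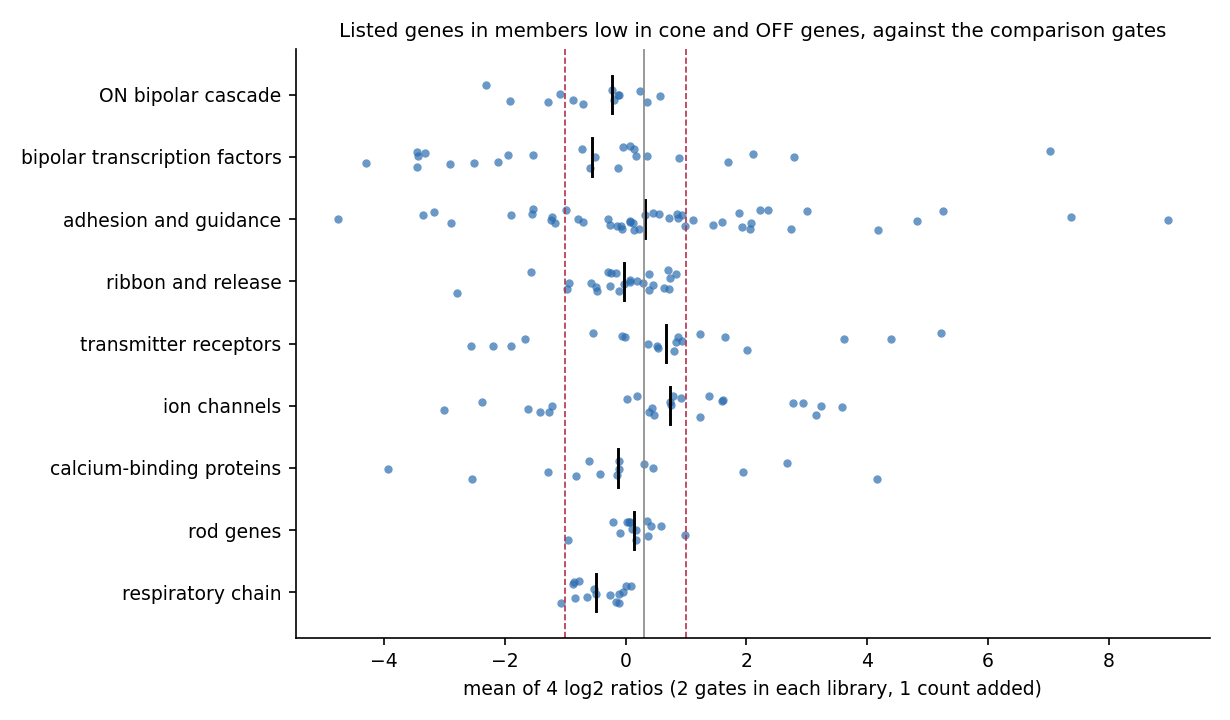
For genes of 9 lists measured in the core members, the mean of the 4 log2 ratios over the type 5 and rod bipolar gates of both libraries (horizontal axis, 1 count added), 1 point per gene with the median of these means as a black bar, which can differ from the medians over all ratios given in the text; dashed lines mark 2-fold and the grey line the median of all genes measured, 0.30. Adhesion, receptor and channel genes spread widely to both sides, while ribbon, rod and respiratory chain genes lie mostly within 2-fold; a gene was counted as higher or lower only when all 4 ratios passed 2-fold.

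The core members were also divided by which rule gene was the more abundant, as a description only. The division uses the UMIs the rule selected on, and with medians of 2 to 4 UMIs a single UMI often decided the side. Cpne9 exceeded Tshz2 in 20 Muller and 18 MullerControl core members, and Tshz2 exceeded Cpne9 in 5 and 15, with 72023, 64595, 20360 and 45335 UMIs in sum. Of 1411 genes with at least 30 UMIs, 14 (0.992%) were at least 2-fold higher with more Tshz2 in both libraries and 8 (0.567%) at least 2-fold lower, while 8 passed 2-fold in opposite directions. Pcp4l1 stood at 491 against 125 CPM in Muller and 353 against 31.0 CPM in MullerControl. Cplx3, a complexin of ribbon synapses, stood at 2112 against 708 CPM and 1941 against 898 CPM. Car2, a carbonic anhydrase, stood at 1130 against 361 CPM and 353 against 46.4 CPM, and the noncoding RNA C130073E24Rik at 344 against 125 CPM and 1213 against 201 CPM. For Neurod4 the log2 ratio was 1.24 (-0.05 to 2.53) in Muller and 2.21 (1.07 to 3.35) in MullerControl. Pdc, a photoreceptor phosphoprotein, stood on the other side, at 147 against 750 CPM and 88.2 against 542 CPM. Csmd3 was at 196 against 111 CPM and 618 against 186 CPM, with log2 ratios of 0.97 (-0.60 to 2.55) and 1.67 (0.72 to 2.61). Pcdh11x showed the opposite sign, with log2 ratios of -0.95 (-2.19 to 0.29) and -1.36 (-2.19 to -0.54). Lrp1b differed in sign between the libraries, at 0.90 (0.24 to 1.56) and -0.17 (-0.69 to 0.35). The Muller sum with more Tshz2 rests on 5 barcodes.

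The share of members differed between the libraries in a way that depended on the denominator. Members made up 0.483% (0.344% to 0.660%) of quality barcodes in Muller and 0.669% (0.50% to 0.877%) in MullerControl, a share ratio of 0.722 (0.477 to 1.09), whose interval includes equal shares. Core members made up 0.335% (0.221% to 0.487%) and 0.528% (0.379% to 0.715%), a ratio of 0.634 (0.391 to 1.03). Of bipolar-gated barcodes, members were 1.00% (0.715% to 1.37%) and 4.40% (3.30% to 5.73%), a ratio of 0.228 (0.151 to 0.344). The other bipolar gates took a larger share of quality barcodes in Muller, type 5 at 4.30% against 1.53% with a ratio of 2.81 (2.29 to 3.45) and rod bipolar at 9.92% against 3.21% with a ratio of 3.09 (2.69 to 3.55). The Igfn1 gate, with 69 and 28 barcodes, had a ratio of 2.37 and was left out of the gene comparison because it held under 50 barcodes in MullerControl. The reporter-positive share at the sort (4.9% against 10%) and the shares of rod-rich barcodes (23.1% against 60.6% of quality barcodes) differed between the libraries as well, and their part in the share ratios was not tested. Fewer such cells and fewer Cpne9 and Tshz2 UMIs per cell cannot be told apart by a rule with a UMI threshold.

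**Figure D4:**
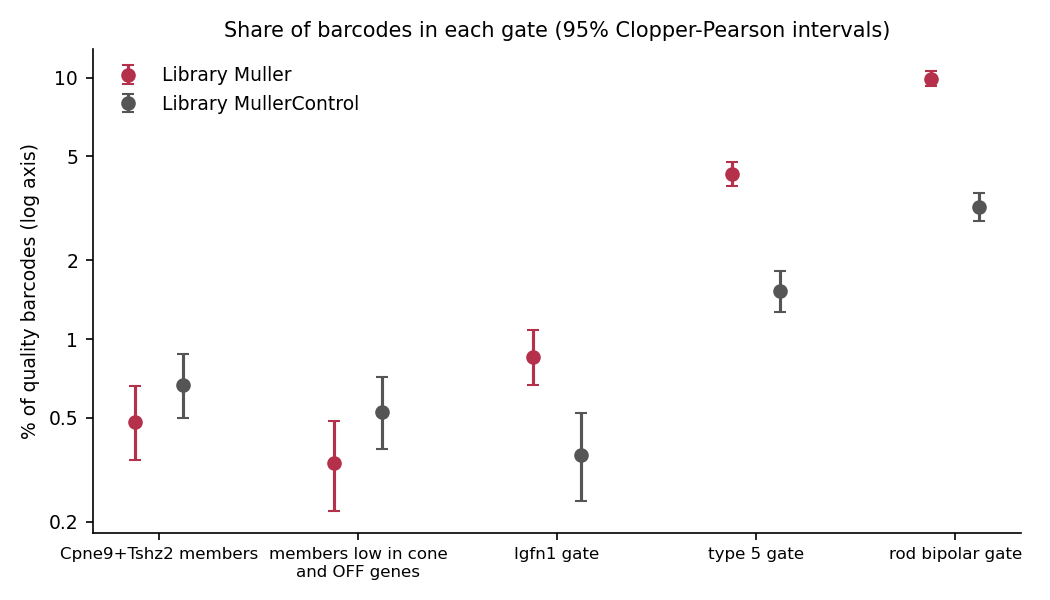
Share of quality barcodes (log axis, 95% Clopper-Pearson intervals) in the members, the core members and 3 other bipolar gates, for the Muller and MullerControl libraries. The intervals of the members overlap between the libraries, at 0.483% and 0.669%, while the type 5 and rod bipolar gates are higher in Muller, at 4.30% against 1.53% and 9.92% against 3.21%.

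Levels within the members were then compared between the libraries. Of 2787 genes with at least 30 UMIs over all members, 330 (11.8%) were at least 1.5-fold higher and 387 (13.9%) at least 1.5-fold lower in Muller. For the core members the counts were 313 of 1667 (18.8%) and 255 (15.3%), and 141 of the higher and 176 of the lower genes were common to both. At these depths a ratio of 1.5 lies within the counting interval of most genes, so the counts describe the ratios alone.

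Rod transcripts were higher in the Muller core members. Of 12 rod genes measured, 10 passed 1.5-fold on the higher side and 0 on the lower, and their median log2 ratio was 0.92, beside 18.8% higher, 15.3% lower and a median of 0.10 over all genes. The 14 rod genes together took 10224 CPM (9603 to 10874) in the Muller core and 4168 CPM (3830 to 4528) in the MullerControl core, against 5887 to 8105 CPM in the gates, and all 14 were detected in both. Few barcodes carried this: 5 Muller and 1 MullerControl core members had at least 40 UMIs of 5 rod genes, and the highest had 132. Without those 6 barcodes the rod sum was 4604 CPM (4133 to 5113) against 3328 CPM (3022 to 3657). The highest Scrublet scores, a measure of doublets, took in 8 of 27 Muller and 1 of 41 MullerControl core members. Among all barcodes scored they took in 1130 of 11887 and 866 of 10404. Whether doublets had a part in the rod sums was not tested. Cone-rich members also held rod transcripts, at 19912 and 18191 CPM. The calcium-binding protein gene Cabp5, with 27 UMIs against 6 in the core, had a log2 ratio of 2.45 (1.25 to 3.64), and Rcvrn, which encodes recoverin, a photoreceptor calcium sensor, had 1.94 (1.24 to 2.64). In the gates both lay between -0.27 and 0.20.

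Some adhesion genes, the noncoding RNAs Meg3 and Kcnq1ot1 and 5 mitochondrial genes were lower in the Muller core. Of 19 adhesion and guidance genes measured, 8 were at least 1.5-fold lower (Pcdh7, Pcdh9, Nrxn3, Tenm1, Unc5d, Robo2, Cadm1 and Cadm3) and 0 higher, and the list's median log2 ratio was -0.50, beside 15.3% lower, 18.8% higher and a median of 0.10 over all 1667 genes. In all members 12 of 23 were lower and 0 higher. Cadm3, a synaptic cell adhesion protein, had a log2 ratio of -1.20 (-1.88 to -0.52), and Tenm1 one of -0.65 (-1.38 to 0.08), whose interval includes 0. Csmd3 was at -1.41 (-2.29 to -0.52) and Lrp1b at -0.49 (-0.88 to -0.11). The rule genes, whose levels the threshold affects, were at -0.21 (-0.56 to 0.13) for Cpne9 and -0.73 (-1.16 to -0.30) for Tshz2. Among the ON cascade genes Gpr179, the scaffold receptor of the mGluR6 complex, was lower at -1.48 (-2.21 to -0.75), and Pcp2 was higher at 0.69 (0.35 to 1.03). Of 5 listed nuclear RNAs, 2 were lower and 0 higher: the imprinted noncoding RNAs Meg3 and Kcnq1ot1 were at -1.04 (-1.64 to -0.44) and -0.90 (-1.43 to -0.36). Egr1, an immediate early gene, had 5 UMIs against 32 and a log2 ratio of -2.01 (-3.27 to -0.76), and it was lower in the gates too, at -1.06 and -0.80. Of 15 respiratory chain genes, the 5 mitochondrial genes mt-Nd1, mt-Nd2, mt-Co2, mt-Co3 and mt-Atp6 were lower and the nuclear genes Ndufa4, Uqcrb and Atp5g3 higher. The median mitochondrial share was 2.45% in the Muller core and 4.91% in the MullerControl core, and it was 2.67% against 4.21% in the type 5 gate and 5.61% against 6.57% in the rod bipolar gate. Whether the depth of the barcodes, the rod transcripts or the mitochondrial share had a part in these ratios was not tested.

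**Figure D5:**
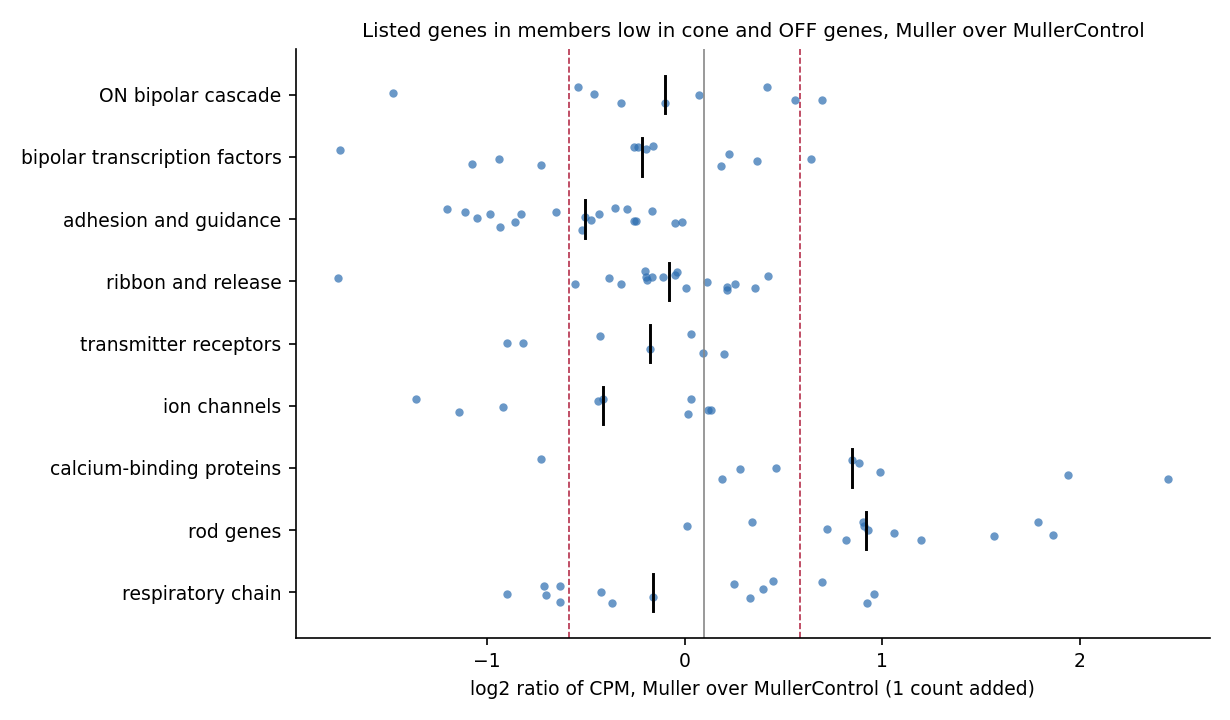
For genes of 9 lists with at least 30 UMIs in the core members, the log2 ratio of CPM, Muller over MullerControl (horizontal axis, 1 count added), 1 point per gene with the list's median as a black bar; dashed lines mark 1.5-fold and the grey line the median of all genes, 0.10. Rod genes lie to the right, with a median of 0.92, and adhesion genes to the left, with a median of -0.50; neither contrast has replicates.

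Markers of most other cell types had few UMIs in the core members, and for glia and amacrine cells the rule itself limited them, through Glul, Rlbp1, Apoe and Slc1a3 and through Gad1, Gad2 and Slc6a9. The 14 Müller glia genes took 1265 CPM (1053 to 1508) in Muller and 468 CPM (360 to 599) in MullerControl, against 1122 to 1781 CPM in the gates, with 2 and 3 of the 14 at 0. Of these UMIs, 57 and 21 were of Car2, which bipolar cells of both gates also carried (544 to 879 CPM), and Rlbp1 had 1 UMI in each. The 13 amacrine genes took 2 UMIs in each library and 11 of them were at 0. The 7 horizontal cell genes took 7 and 21 UMIs, the 10 microglia genes 2 and 6 UMIs, and the 8 vascular and pigment epithelium genes 0 and 4 UMIs. The 11 ganglion cell genes, which bear on the series' title, took 9 and 8 UMIs (91.1 and 59.4 CPM) against 8.86 to 33.6 CPM in the gates. Of these, 5 and 7 were UMIs of Nefh, a neurofilament gene, and Slc17a6, which encodes the vesicular glutamate transporter of ganglion cells, was at 0 in both libraries, while Rbpms had 1 and 0 UMIs.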

How the data were processed

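Single-cell RNA libraries were made with 10x Genomics 3′ chemistry from sorted retinal cells, 1 library per group. The deposited values are UMI counts per gene and barcode in filtered matrices which, per the file headers, Cell Ranger 4.0.0 wrote. Seurat 4.0.5 and the builds mm10 and GRCh38 stand in the submitters' processing notes without a role. The libraries held 25622379 and 23549118 UMIs (median 1478 and 1552 per barcode, minimum 500) over 32285 features. The members and the 26 gene lists were chosen with earlier results of these data known.

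Counts were summed per library and group of barcodes. CPM carry exact Poisson intervals, shares Clopper-Pearson intervals, and share ratios Katz log intervals, all at 95%, for counting error only. No test was run, since each group had 1 library. Against the gates, a gene was measured with at least 20 UMIs over members and gates of both libraries. It also needed 50 CPM in at least 1 of these groups. Between libraries the minimum was 30 UMIs. A floor of 3 counts stands for sums of 0. Genes were named by rule: the 16 highest and 10 lowest against the gates, by the ratio nearest to 1 over gates and libraries; the 10 highest and 10 lowest between libraries among genes with at least 50 UMIs; the rule genes and markers; and list members needed to describe a list. It was applied to all members and to the core. Prox1, Drd2, Mt1, Agr2, Opn1mw, Gt(ROSA)26Sor and the genes of the split by Cpne9 and Tshz2 were named after their values were seen. Doublets were not removed in the main values. Highest Scrublet scores (scanpy 1.11.5) were removed as an alternative, beside other thresholds, denominators, added counts, UMI minimums and thinning. The scripts were tested on simulated data and ran in Python 3.11.15 with numpy 2.4.6, scipy 1.17.1, pandas 2.3.3 and matplotlib 3.10.9.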

Additional observations from a re-analysis of the deposited data

Results flagged for a closer look

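The point values of the share of quality barcodes lay on either side of equality between bipolar groups. For the members the Muller share divided by the MullerControl share was 0.722 (0.477 to 1.09), while it was 2.81 (2.29 to 3.45) for the type 5 gate and 3.09 (2.69 to 3.55) for the rod bipolar gate. The difference between these ratios was not tested, since each group had 1 library, and the interval of the member ratio includes 1, so that no direction is shown for the members.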

How the results depend on the processing

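No paired analysis was possible because each group had 1 library. The share ratio over bipolar-gated barcodes (0.228) was below 1 under each alternative run and moved to 0.148 with at least 5 UMIs of Cpne9 and Tshz2, to 0.722 over quality barcodes, and to 0.114 with barcodes thinned to 1000 UMIs, where 7 and 18 members remained. The number of members (91) became 137 with at least 2 UMIs of the pair and 52 with at least 5. Genes higher than both gates (201) became 310 with 5 counts added, 128 with at least 100 UMIs and 111 when the Igfn1 gate was added. Genes lower than both gates (59) became 18 with 5 counts added and 33 with the Igfn1 gate. Genes higher in Muller members (330) became 2767 with a UMI minimum of 1, 46 with at least 100 UMIs and 504 with the mean of per-barcode CPM. Genes lower in Muller members (387) became 241 with 5 counts added, 2509 with a UMI minimum of 1, 43 with at least 100 UMIs and 255 without cone-rich and OFF-rich members. The counts with the UMI minimums differ in how many genes were measured. So do those with the Igfn1 gate (6020 in place of 5517) and without cone-rich and OFF-rich members (1667 in place of 2787). Without those members the 255 lower genes were 15.3% of the genes measured, and the 387 of the main run were 13.9%. The cause of the other changes was not tested. The Igfn1 gate and the leaving out of cone-rich and OFF-rich members were chosen after seeing the data. Few members and 1 library per group limit every value here.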

Other observations

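Interferon-response genes had few UMIs and passed the minimum for the comparison with the gates through the Muller core. Ifit1, an antiviral RNA-binding protein, had 16 UMIs in the Muller core and 2 in the MullerControl core, and Ifit3 had 11 and 2. Ifi27 had 10 and 4 UMIs and Bst2, which tethers virus particles, 9 and 0. None of the listed genes of this response reached the 30 UMIs set for a comparison of the core between the libraries. In the gates these 4 genes stood at 0 to 25.9 CPM. With 10 CPM added, Ifit3 and Ifi27 were at least 2-fold higher than both gates in both libraries. Since these genes were measured through their level in the Muller core, their being higher there is no separate result. In the MullerControl core the call rests on 2 Ifit3 and 4 Ifi27 UMIs, where 2 UMIs are 14.9 CPM and 4 are 29.7 CPM.

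The RNA of the reporter locus, Gt(ROSA)26Sor, stood at 850 CPM in the Muller core and 453 CPM in the MullerControl core, against 1216 and 860 CPM in the type 5 gate and 524 and 461 CPM in the rod bipolar gate.

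Removing the barcodes with the highest Scrublet scores, 1130 of 11887 and 866 of 10404, took out 11 of the 39 Muller members and 4 of the 52 MullerControl members. Among core members it took out 8 of 27 and 1 of 41.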
